A study of Mus musculus with 6 samples.

Results

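The genes of the condensin complexes and of the type II topoisomerases were examined in cultured satellite cells (SCs) of NF-YA cKO mice and of their NF-YA fl/fl controls. Members were taken from the tables by symbol, with earlier results of these data known. They are the shared condensin subunits Smc2 and Smc4, the condensin I subunits Ncapd2, Ncapg and Ncaph, the condensin II subunits Ncapd3, Ncapg2 and Ncaph2, and the topoisomerases Top2a and Top2b, 10 of the 35976 genes in the deposited tables.

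RNA was measured in SCs, the stem cells of adult skeletal muscle, after induced and partial loss of NF-YA. There were 3 libraries per genotype. NF-YA cKO mice carry the floxed NF-YA alleles (fl/fl) together with Pax7-CreERT2, a Cre recombinase expressed in Pax7-positive cells that becomes active with tamoxifen. NF-YA fl/fl mice carry the same floxed alleles without Cre and are the control, and both genotypes were treated with tamoxifen dissolved at 20 mg/ml, so that the presence of Cre and the loss of NF-YA cannot be told apart. The labels give an age of 5 to 7 weeks for all mice, while the study's methods give 6 to 8 weeks and describe male mice. Hindlimb SCs were enriched by magnetic depletion of other cells (antibodies to CD31, CD45, CD11b and Sca1) and collected after 4 days in growth medium, and stranded libraries were made from 500 ng of total RNA. The labels number the libraries as replicates without naming mice, so that p-values measure the spread between these libraries.

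Condensins are ring-shaped complexes that extrude loops of DNA and compact chromosomes for mitosis. SMC2 and SMC4 form their ATPase core, and condensin I and condensin II add different sets of non-SMC subunits, a kleisin that closes the ring and a pair of HEAT-repeat proteins. Condensin II is nuclear throughout the cell cycle and acts early in prophase, whereas condensin I gains access to chromosomes after nuclear envelope breakdown. Type II topoisomerases cut both strands of DNA and pass another duplex through the break, which untangles sister chromatids. TOP2A accumulates in cycling cells toward mitosis, and TOP2B is also present in cells that do not divide, such as differentiated muscle. NF-YA gives the trimeric factor NF-Y its affinity for DNA. NF-Y recognizes the CCAAT box, an element of many promoters of cell cycle genes.

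Since NF-YA was the gene deleted, the bases upstream of the members' transcription starts were read first. Promoter sequences were taken from RefSeq (GRCm38.p6), which gave 10 windows for 9 members (Ncapd3 has alternative starts). No window was at hand for Smc4. The letters CCAAT were counted on both strands (CCAAT or ATTGG, which do not overlap each other) in the 250 bases before each start. Starts are those of RefSeq. The GENCODE annotation begins further upstream for Ncapd2, Ncapg, Ncapg2, Top2b and the second start of Ncapd3. Top2a held 6 matches, a number that only 0.0578% of the 32851 windows of all genes reached. Ncapd2 held 3 (2.79% of windows held at least as many), Top2b held 2 (10.1%), and Smc2 and Ncapg held 1 each (33.8%). In the windows of Ncapd3, Ncapg2, Ncaph and Ncaph2 these letters were not found. The upstream sequences of the paralogs Top2a and Top2b are shown because they hold most of the matches found and the balance of this pair differed most between genotypes. Capitals mark the matches. Top2a is given on the minus strand (chr11:99024200-99024439) and Top2b on the plus strand (chr14:16364956-16365178), both 5′ to 3′ and ending before the first annotated base of the gene.
Top2a: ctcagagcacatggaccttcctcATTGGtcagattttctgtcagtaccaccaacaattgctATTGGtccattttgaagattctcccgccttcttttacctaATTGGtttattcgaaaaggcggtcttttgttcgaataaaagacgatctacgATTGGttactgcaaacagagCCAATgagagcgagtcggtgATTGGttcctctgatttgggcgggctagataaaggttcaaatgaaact
Top2b: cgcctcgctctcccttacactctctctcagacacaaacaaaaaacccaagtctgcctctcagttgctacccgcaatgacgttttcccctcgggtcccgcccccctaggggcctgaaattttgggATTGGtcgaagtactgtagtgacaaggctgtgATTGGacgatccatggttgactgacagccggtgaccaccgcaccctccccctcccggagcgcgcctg

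In Top2a the matches began 227, 189, 149, 98, 78 and 58 bases before the start, and 5 of the 6 read ATTGG on the strand of the gene. In Top2b they began 126 and 94 bases before it, both as ATTGG. The Ncapd2 match 48 bases before the RefSeq start lies inside the gene as GENCODE annotates it, from base 125191701 of the minus strand. The count of 3 for Ncapd2 includes this match. The matches of the condensin genes are shown with 10 bases on each side, from chr6:125191749-125191773, chr6:125191720-125191744 and chr6:125191620-125191644 (minus strand) for Ncapd2, chr4:52439092-52439116 (plus strand) for Smc2 and chr5:45669739-45669763 (plus strand) for Ncapg.
Ncapd2, 177 bases before the start: cggggctgtgATTGGttggcttctc
Ncapd2, 148 bases before the start: ctctgtcgcgATTGGcctcctggca
Ncapd2, 48 bases before the start: cctgccgcggATTGGccggttcctc
Smc2, 119 bases before the start: ctcctaccttCCAATattaaaacta
Ncapg, 176 bases before the start: accttttcctATTGGgagagcggca

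The letters of the cell cycle genes homology region (CHR), searched as TTTGAA on either strand or TTCGAA, were in 17.1% of all windows, and 6.02% held both CHR letters and CCAAT. Top2a held CHR letters 179, 140, 120 and 23 bases before its start. They were also in the windows of Ncapd2 (123 bases before the start), Smc2 (145), Ncapg (30), Ncapg2 (18), Ncaph2 (22) and the second start of Ncapd3 (249), and not in those of Ncaph and Top2b. Those of Ncapg, Ncapg2 and the second start of Ncapd3 lay inside the gene by the wider of the RefSeq and GENCODE annotations. Both kinds of letters were therefore present in Top2a, Ncapd2, Smc2 and Ncapg. A match is a description of the letters, and binding was not measured in the files used here. The study did measure NF-YA binding at the Top2a promoter by chromatin immunoprecipitation, and reported it as reduced in NF-YA cKO SCs.

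The libraries held 31040863 to 41118984 expected counts in NF-YA cKO and 26936230 to 33316730 in NF-YA fl/fl. An RNA entry that the authors added for the deleted Nfya allele received 22.3%, 26.4% and 34.2% of the Nfya counts in the NF-YA cKO libraries and 0 counts in the NF-YA fl/fl libraries. The other Nfya transcripts remained at 21.0, 21.0 and 17.8 CPM in NF-YA cKO, against 23.4, 25.7 and 36.9 CPM in NF-YA fl/fl, so the loss was partial at the RNA level. The Nfya gene as a whole did not pass the test (log2 fold change -0.06, FDR = 0.814, edgeR's quasi-likelihood test). The genotypes also differed in ways other than NF-YA. All NF-YA cKO libraries expressed Xist (843 ± 8.35 CPM, against 0.389 ± 0.0846), and all NF-YA fl/fl libraries the Y-linked Ddx3y (84.9 ± 3.82 CPM, against 0.0636 ± 0.0277; SD, n = 3), and the sex of the cells and their genotype cannot be told apart. The summed level of 10 differentiated muscle markers was 10101 to 13869 CPM in NF-YA fl/fl and 61.3 to 145 CPM in NF-YA cKO, and all 10 passed as lower. Of 10 macrophage markers 9 passed as higher, with sums of 141 to 279 CPM in NF-YA cKO and 5.26 to 15.4 CPM in NF-YA fl/fl; Ptprc, which encodes the depleted CD45, and C1qb were at 0 in NF-YA fl/fl replicate 1. The satellite cell and myoblast markers were present in both genotypes (sums of 1450 to 1630 CPM in NF-YA cKO and 2223 to 3878 CPM in NF-YA fl/fl). They differed in direction, with 2 of 7 higher and 3 lower in NF-YA cKO at an FDR under 0.05. Pax7 (171 ± 28.4 against 88.7 ± 15.8 CPM) and Vcam1 were higher, and Cdh15, Itga7 and Des were lower. Replicates of NF-YA fl/fl were more spread, the biological coefficient of variation being 0.31 there and 0.105 in NF-YA cKO. The library furthest from its group was NF-YA fl/fl replicate 3.

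Most condensin genes and Top2a were about 2-fold higher in NF-YA cKO SCs, whereas Top2b was nearly level. Condensin I and the SMC core rose together, by log2 fold changes of 1.0 to 1.29, and within condensin II the subunits parted, with Ncapg2 at 1.04, Ncapd3 at 0.71 and Ncaph2 at 0.42. A gene was called when its FDR, from edgeR's quasi-likelihood test adjusted by Benjamini-Hochberg over all 17348 tested genes, was under 0.01 and its log2 fold change exceeded 1 in either direction. By this rule 7 of the 10 members were called higher, where 4.65% of all tested genes were, and 0 of 10 were called lower, where 7.67% of all genes were. With an FDR under 0.05 at any fold change, 9 of 10 members were higher (19.7% of all genes) and 0 were lower (18.9%). For 9 members every NF-YA cKO library lay above every NF-YA fl/fl library, as for 29.1% of all genes. The members had a median of 1.07 in log2 fold change, and all tested genes a median of -0.02. All 10 members passed the filter on low counts in both genotypes, with 573 to 23393 counts per library. In bulk RNA, more cells that express a gene and more RNA per cell cannot be told apart, and the part of the muscle marker and macrophage marker differences above in the members' differences was not tested.

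The count of called members depended on which library was left out. It was 0 of 10 when NF-YA cKO replicate 1, 2 or 3 or NF-YA fl/fl replicate 1 was left out, with 177 to 298 genes still called higher in all. Without NF-YA fl/fl replicate 2 it was 7, beside 890 of all 17028 tested genes called higher. Without NF-YA fl/fl replicate 3 it was 5, beside 854 of all 17170 tested genes. In each of these fits 9 members kept an FDR under 0.05 and a higher level in NF-YA cKO. The share of all genes that did so in these fits is not given here.

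Smc2, at chr4:52439243-52488260 on the plus strand (GRCm38), had 210, 223 and 206 CPM in NF-YA cKO and 87.5, 119 and 67.1 CPM in NF-YA fl/fl. CPM are counts scaled to library size after TMM normalization, listed here and below in the order of replicates 1, 2 and 3. The means were 213 ± 9.2 and 91.1 ± 26.0 CPM (SD, n = 3), a log2 fold change of 1.23 (SE 0.20, FDR = 0.00414, edgeR's quasi-likelihood test). Its partner Smc4 (chr3:69004738-69034623, plus strand) had 272, 286 and 273 CPM against 124, 174 and 117 CPM. The lowest NF-YA cKO library was thus well above the highest NF-YA fl/fl library for both genes of the ATPase core, and NF-YA fl/fl replicate 2 was the highest control. For Smc4 the log2 fold change was 1.0 (SE 0.16, FDR = 0.00396, edgeR), right at the fold threshold. Smc4 was called in fewer of the 15 alternative fits than Smc2, which was called in 9. The miRNA genes Mir15b and Mir16-2 lie within Smc4 on the same strand.

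Among the condensin I subunits, the HEAT-repeat subunit gene Ncapd2 (chr6:125168007-125191701, minus strand) had 160, 181 and 175 CPM in NF-YA cKO and 57.0, 101 and 79.1 CPM in NF-YA fl/fl. It rose by a log2 fold change of 1.12 (SE 0.20, FDR = 0.00566, edgeR). Ncapg (chr5:45669919-45700546, plus strand), which encodes the other HEAT-repeat subunit, had 89.1, 94.3 and 81.3 CPM against 34.8, 47.2 and 26.5 CPM. With a log2 fold change of 1.29 (SE 0.21, FDR = 0.00387, edgeR), Ncapg had the highest fold change of the members. Lcorl overlaps Ncapg by 3366 bases on the opposite strand, and was at 44.8 ± 0.498 and 40.5 ± 0.527 CPM. The kleisin gene Ncaph (chr2:127103809-127133954, minus strand) had 59.1, 61.5 and 57.9 CPM against 21.9, 34.4 and 26.2 CPM. Its log2 fold change was 1.11 (SE 0.17, FDR = 0.0031, edgeR). All 3 genes specific to condensin I were therefore called, and in each of them the NF-YA cKO libraries lay closer together than the NF-YA fl/fl libraries.

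The condensin II subunits were less uniform. Ncapg2 (chr12:116405402-116463731, plus strand), a HEAT-repeat subunit gene, had 125, 126 and 123 CPM in NF-YA cKO against 57.3, 76.0 and 48.9 CPM in NF-YA fl/fl. It was called with a log2 fold change of 1.04 (SE 0.16, FDR = 0.0036, edgeR). Ncapd3 (chr9:27030175-27095315, plus strand), the other HEAT-repeat subunit gene, had 60.2, 60.7 and 64.3 CPM against 34.1, 46.2 and 32.6 CPM. It passed on the FDR and not on the fold (log2 fold change 0.71, SE 0.15, FDR = 0.00963, edgeR). The kleisin gene Ncaph2 (chr15:89355719-89372826, plus strand) had 137, 135 and 136 CPM against 103, 99.7 and 102 CPM. Ncaph2 was the most even member within each genotype, with SDs of 1.25 and 1.83 CPM, and the smaller difference (log2 fold change 0.42, SE 0.08, FDR = 0.00599, edgeR) still exceeded the spread between libraries. It was also the only member in which NF-YA fl/fl replicate 2 was not the highest control library. Sco2 and Tymp overlap Ncaph2 on the opposite strand, by 1190 and 896 bases, with Sco2 at 10.6 CPM (NF-YA cKO) and 8.56 CPM (NF-YA fl/fl), and Tymp at 0.702 and 0.729 CPM.

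The topoisomerases went apart. Top2a (chr11:98992943-99024189, minus strand) had 522, 564 and 514 CPM in NF-YA cKO and 199, 327 and 182 CPM in NF-YA fl/fl. It rose by a log2 fold change of 1.18 (SE 0.23, FDR = 0.00735, edgeR), from 236 ± 79.3 to 534 ± 27.1 CPM (SD, n = 3). NF-YA fl/fl replicate 2 weighed on this value, since the log2 fold change was 1.48 without it and 1.01 without NF-YA fl/fl replicate 3. Top2b (chr14:16365179-16435462, plus strand) had 241, 237 and 221 CPM against 195, 243 and 210 CPM. The genotypes overlapped, since NF-YA fl/fl replicate 2 was above all NF-YA cKO libraries, and Top2b did not pass the test (log2 fold change 0.11, SE 0.11, FDR = 0.452, edgeR). Rarb overlaps Top2b by 4624 bases on the opposite strand, and was at 2.75 ± 0.889 and 3.71 ± 1.84 CPM.

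**Figure D1:**
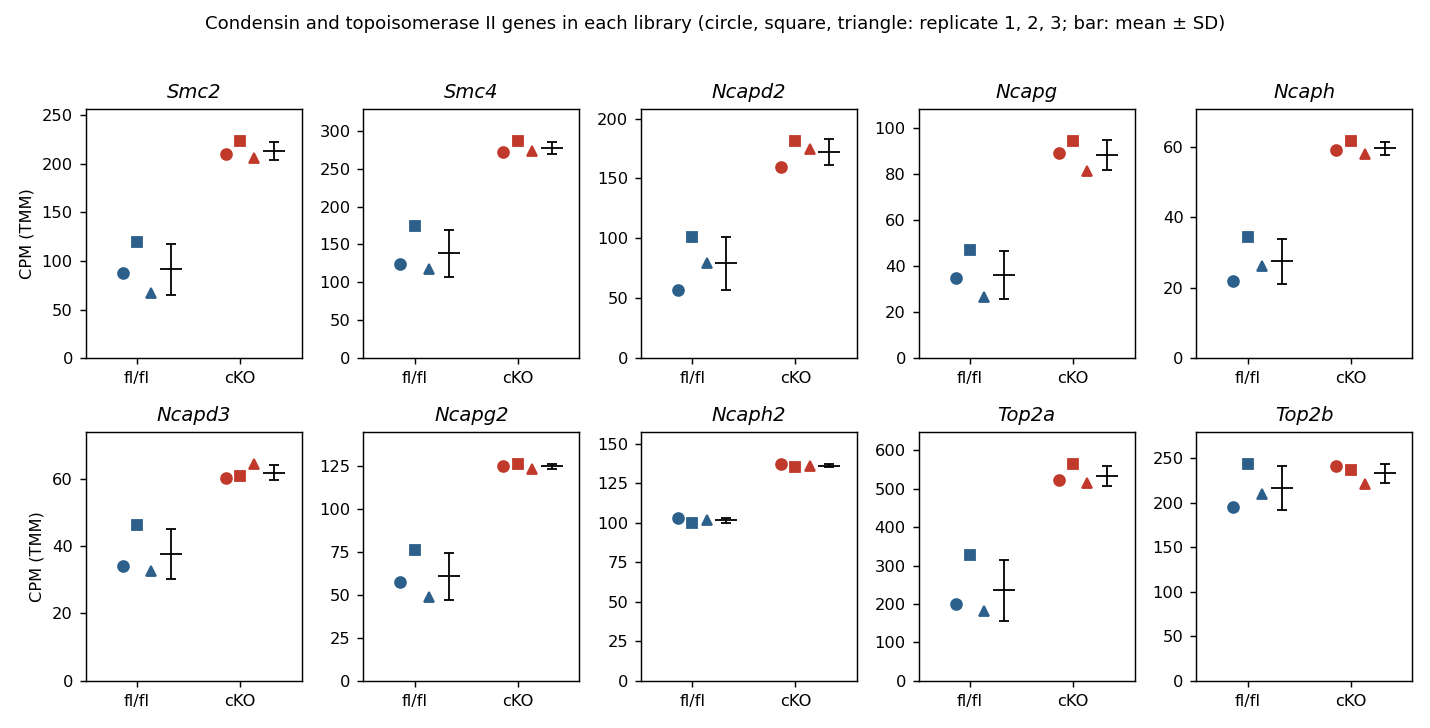
CPM (y axis, TMM-normalized, linear and starting at 0) of each member in the NF-YA fl/fl (blue) and NF-YA cKO (red) libraries, with symbols for replicates 1 to 3 and bars for mean ± SD. The genotypes are apart in 9 panels and overlap in Top2b, and the blue square (NF-YA fl/fl replicate 2) is the highest control except in Ncaph2.

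Levels were compared between genes in TPM, which is scaled to transcript length. In NF-YA cKO the order was Top2a (108 to 117 TPM), Smc4 (70.6 to 78.7), Ncaph2 (48.4 to 59.1), Top2b (41.8 to 50.0), Smc2 (40.4 to 44.5), Ncapd2 (40.4 to 44.3), Ncapg (25.6 to 29.2), Ncaph (23.5 to 26.5), Ncapg2 (19.1 to 22.1) and Ncapd3 (11.1 to 13). The ranges of neighbours overlapped for Ncaph2 and Top2b, Top2b and Smc2, Smc2 and Ncapd2, and Ncapg and Ncaph, and were apart for the others. Top2a, Smc4 and Ncapd3 thus held the first, the second and the last place in every NF-YA cKO library. In NF-YA fl/fl the ranges of every pair of neighbours overlapped. Within each NF-YA fl/fl library, Smc4 was still above Ncapd2, Smc2 above Ncaph and Ncapg2 above Ncapd3, which was last. The order there was Top2a (33.7 to 88.4 TPM), Top2b (35.8 to 60.6), Ncaph2 (32.9 to 52.3), Smc4 (27.8 to 60.7), Ncapd2 (14.7 to 32.0), Smc2 (11.7 to 30.3), Ncaph (9.66 to 18.6), Ncapg (7.16 to 18.7), Ncapg2 (7.2 to 16.3) and Ncapd3 (5.45 to 11.3). Top2b took the first place in NF-YA fl/fl replicate 3, with 35.8 TPM against 33.7 TPM for Top2a.

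On this scale the genotypes overlapped for Ncapd3, Ncaph2 and Top2b through NF-YA fl/fl replicate 2, whose Top2b level of 60.6 TPM was above all other libraries. TPM moves with the rest of the library, and the structural RNAs Rn7s1, Rn7s2 and Rn7sk took 21.3% of the TPM in that library and 24.2% to 36.4% in the other 5. Their part in the TPM values was not tested, and shares of pairs of genes within a library do not depend on it.

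**Figure D2:**
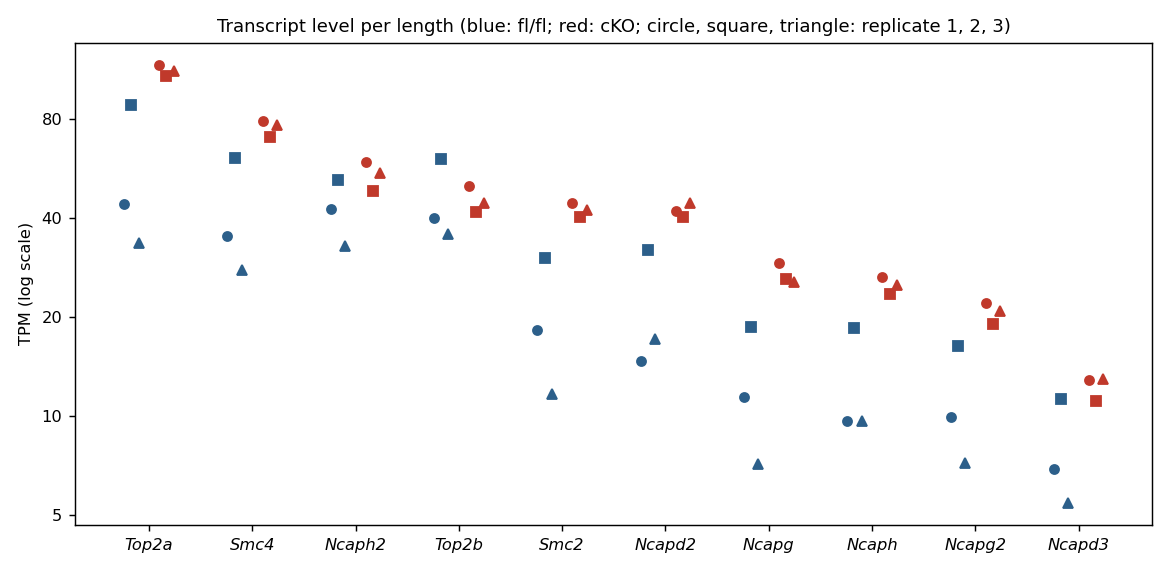
TPM (y axis, log scale) of the members in NF-YA fl/fl (blue) and NF-YA cKO (red) libraries, ordered by their mean in NF-YA cKO. Top2a is at 108 to 117 TPM in NF-YA cKO and Ncapd3 at 11.1 to 13 TPM, while blue squares, NF-YA fl/fl replicate 2, lie inside or above the red points for Ncapd3, Ncaph2 and Top2b.

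The balance between paralogs or partners was measured as a share of the pair's TPM in each library, in 5 pairs. Top2a made up 70.1%, 72.1% and 71.6% of the topoisomerase II transcripts in NF-YA cKO and 52.6%, 59.3% and 48.5% in NF-YA fl/fl. This corresponds to 2.35, 2.58 and 2.52 Top2a transcripts per Top2b transcript in NF-YA cKO against 1.11, 1.46 and 0.94 in NF-YA fl/fl, and to a difference of 1.11 in the mean log2 ratio (exact permutation test, two-sided, p = 0.1). The value 0.1 is the smallest p that 3 libraries against 3 allow, and it was the p of all 5 pairs, so that none could pass 0.05. The kleisin pair shifted next, with Ncaph at 31.0%, 32.7% and 31.4% of Ncaph and Ncaph2 in NF-YA cKO and 18.5%, 26.3% and 22.7% in NF-YA fl/fl. In both pairs the genotypes were apart, although Ncaph2 transcripts outnumbered those of Ncaph in all 6 libraries.

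The HEAT-repeat pairs differed less. Ncapd2 was 77.4 ± 0.959% of Ncapd2 and Ncapd3 in NF-YA cKO and 72.6 ± 4.13% in NF-YA fl/fl. Ncapg was 56.6 ± 1.4% of Ncapg and Ncapg2 against 52.3 ± 2.07%. Within the shared core, Smc2 was 36.0 ± 0.403% of Smc2 and Smc4 against 32.3 ± 2.39%. The libraries did not overlap in any of these pairs, with differences in mean log2 ratio of 0.37, 0.25 and 0.24. How often the ratios of other pairs of genes are apart in this way was not tested. In the 3 pairs of a condensin I and a condensin II subunit, the condensin I gene held a larger share in NF-YA cKO than in the controls. The size of these differences rested in part on single controls. That for Ncapd2 and Ncapd3 was 0.20 without NF-YA fl/fl replicate 1, and that for Smc2 and Smc4 was 0.15 without NF-YA fl/fl replicate 3. Over the 3 specific subunits, condensin I genes averaged 32.6, 30.0 and 31.7 TPM in NF-YA cKO and 11.9, 23.1 and 11.3 TPM in NF-YA fl/fl, and condensin II genes 31.4, 26.2 and 29.7 TPM against 19.9, 26.6 and 15.2 TPM. The condensin II mean was set mainly by Ncaph2, and in the HEAT-repeat pairs the condensin I gene was the higher in every library, except for Ncapg in NF-YA fl/fl replicate 3 (49.9%).

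**Figure D3:**
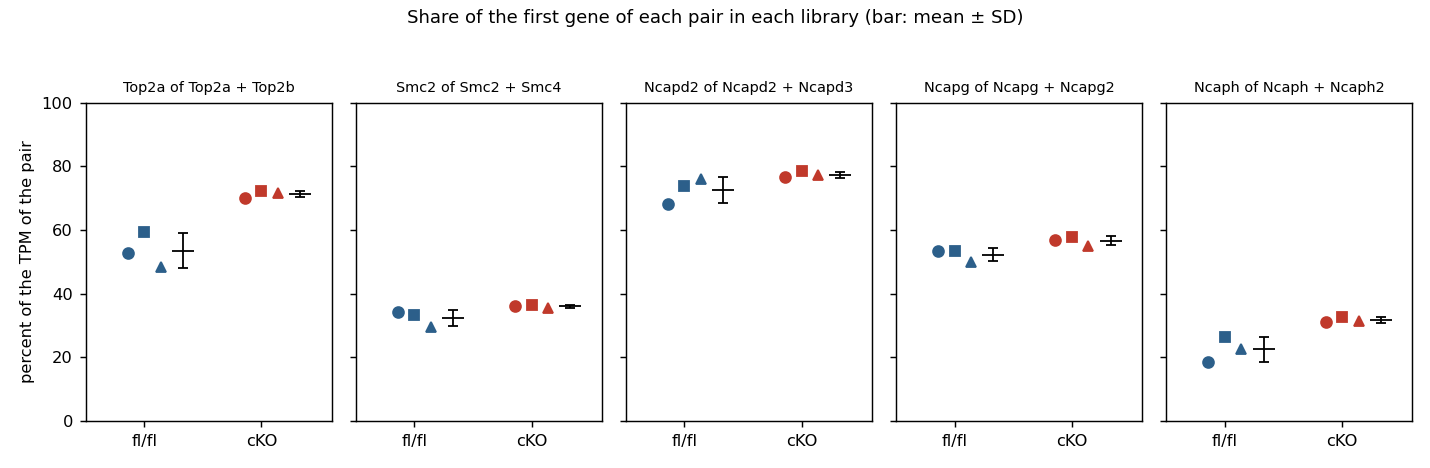
Share of the first gene in the TPM of each pair (y axis, percent, 0 to 100) for NF-YA fl/fl (blue) and NF-YA cKO (red) libraries, with bars for mean ± SD. All 5 shares are higher in every NF-YA cKO library, most for Top2a (71.3% against 53.5%) and Ncaph (31.7% against 22.5%).

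To see whether the members moved with other genes of dividing cells, each level was set against the mean log2 TPM of 15 replication genes in the same library (among them Pcna, the Mcm helicase genes and Ccna2). The median of these genes was 1.38 in log2 fold change, and 12 of 15 were called higher. Relative to them, Top2a differed by -0.12 on the log2 scale (exact permutation test, two-sided, p = 0.2), and Smc2, Ncapd2, Ncapg and Ncaph by -0.08, -0.19, -0.04 and -0.21 (p = 0.4, 0.4, 0.6 and 0.3, exact permutation tests). The genotypes overlapped in these 5 genes. The other 5 were lower in every NF-YA cKO library, by -1.23 for Top2b, -0.90 for Ncaph2, -0.56 for Ncapd3, -0.32 for Smc4 and -0.29 for Ncapg2 (each p = 0.1, exact permutation test). The same was so for 84.7% of all 16997 genes compared in this way. The 5 genes below, among them all 3 condensin II subunits, were thus on the side of most genes. The overlap of the other 5 genes rested on 1 control library each. Without NF-YA fl/fl replicate 1, Ncapd2 (-0.37), Ncaph (-0.32) and Top2a (-0.17) were also below in every NF-YA cKO library, as was Smc2 (-0.16) without NF-YA fl/fl replicate 3 (each p = 0.1, exact permutation test, the smallest allowed). Ncapg, too, was below in every NF-YA cKO library without NF-YA fl/fl replicate 3 (-0.12, exact permutation test, p = 0.2). The value of Ncapd2 without NF-YA fl/fl replicate 3 was -0.04, and that of Top2a without NF-YA fl/fl replicate 2 was -0.03.

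RSEM also assigned the members' reads to transcripts. Of the transcripts with a mean share of 5% to 95% of their gene, 24 could be compared in 8 members, while Ncaph and Top2b have 1 transcript each. The shares of 5 of the 24 did not overlap between genotypes, against 20.3% of the 30840 transcripts compared over all genes, a similar share. The largest shift was in Ncapd3, whose transcript of 5503 nt took 83.2%, 75.5% and 69.8% of the gene's TPM in NF-YA cKO and 59.0%, 55.3% and 51.4% in NF-YA fl/fl. Between genotypes this was a difference of 21.0 percentage points (exact permutation test, two-sided, p = 0.1). In TPM, this transcript had 10.7, 8.38 and 9.11 in NF-YA cKO and 4.09, 6.27 and 2.8 in NF-YA fl/fl, which did not overlap, unlike the TPM of the whole gene. For Ncapd2, the transcript of 4514 nt took 87.9 ± 2.03% in NF-YA cKO and 79.0 ± 5.5% in NF-YA fl/fl, and that of 4538 nt took 5.56 ± 1.47% and 14.7 ± 5.92%. For Ncapg, which has only 2 transcripts, that of 3698 nt took 91.8 ± 2.59% and 86.5 ± 2.68%, and the one of 3016 nt the rest. In each of these genes, picked by their lack of overlap, the most abundant transcript held more of the gene in NF-YA cKO. The 2 shares of Ncapg mirror each other. The main transcripts of Smc2, Smc4, Ncapg2, Ncaph2 and Top2a overlapped between genotypes (differences of 0.1, 0.417, 9.85, -3.01 and 0.25 percentage points). Shares of transcripts with common exons are estimates of the authors' software.

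**Figure D4:**
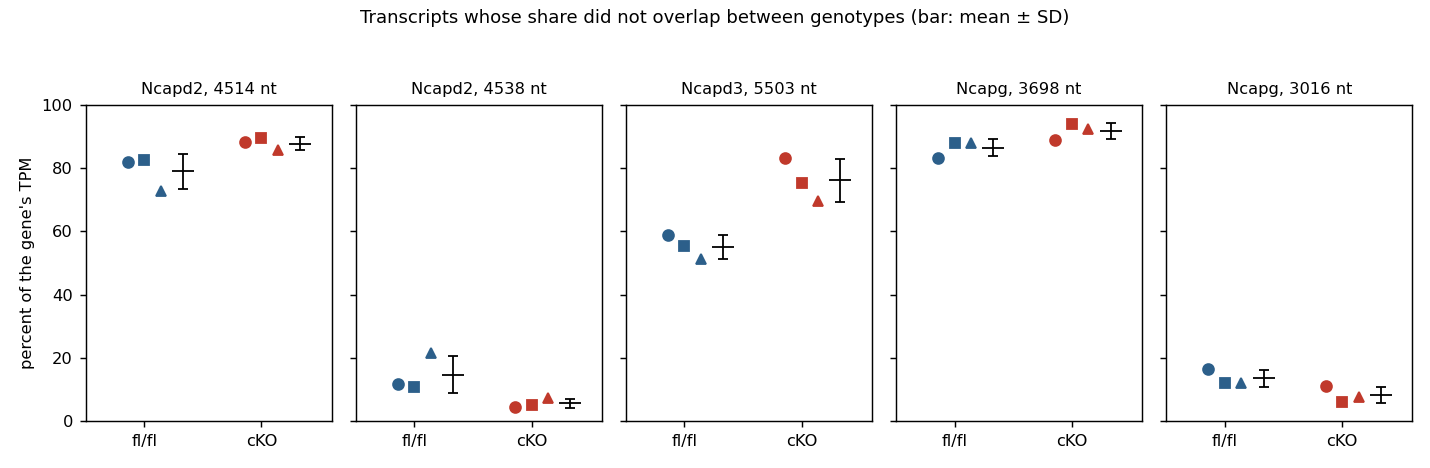
Percent of the gene's TPM (y axis, 0 to 100) in the 5 transcripts whose libraries did not overlap between NF-YA fl/fl (blue) and NF-YA cKO (red), with bars for mean ± SD. The Ncapd3 transcript of 5503 nt moves most, from 51.4% to 59.0% in NF-YA fl/fl to 69.8% to 83.2% in NF-YA cKO.

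The neighbouring pathways were read from lists of genes, by the same test and the same background shares. Among 22 regulators of condensin and components of the mitotic chromosome scaffold, 13 were called higher and 0 lower, with a median log2 fold change of 1.19. At an FDR under 0.05, 18 were higher and 1 lower. At the top were Aurka, a mitotic kinase (log2 fold change 1.47, FDR = 0.000567, edgeR), Ccnb1, the cyclin B1 of the mitotic CDK (1.46, FDR = 0.00185) and Birc5, the survivin of the chromosomal passenger complex (1.44, FDR = 0.00282). At the other end were Akap8l (-0.92, FDR = 0.00156), which fell with a fold under the threshold, and Lrif1 (-0.24, FDR = 0.142), which did not pass. The regulators were the list whose median came closest to that of the members.

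By the medians of their lists, which also hold loaders or regulators, the other SMC complexes moved less. In the list of cohesin, its loaders and regulators, 5 of 19 tested genes were called higher and 0 lower, 10 were higher at an FDR under 0.05, and the median was 0.42. Those with the highest changes act on cohesion itself, the acetyltransferase gene Esco2 (1.27, FDR = 0.00522, edgeR), the centromere protector Sgol1 (1.23, FDR = 0.0017) and the sororin gene Cdca5 (1.19, FDR = 0.00149). The tested SMC genes of cohesin, Smc1a (0.92, FDR = 0.0081, edgeR) and Smc3 (0.65, FDR = 0.00674), were higher with a fold under the threshold. The deacetylase gene Hdac8 (-0.27, FDR = 0.161) and the loader gene Mau2 (-0.30, FDR = 0.0596) did not pass. Of 9 genes of the Smc5/6 complex, 1 was called (Nsmce4a, 1.0, FDR = 0.00544), 3 were higher at an FDR under 0.05 and 0 lower, and the median was 0.17. Nsmce1, a RING-domain subunit gene, was higher with a fold under the threshold (0.61, FDR = 0.00433), while Eid3 (0.33, FDR = 0.458), Slf1 (-0.29, FDR = 0.0513) and Fam178a, also named Slf2 (-0.43, FDR = 0.114), did not pass.

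Among 11 tested genes of other topoisomerases and their partners, 0 were called in either direction and 6 were higher at an FDR under 0.05, with a median of 0.51. The partners led this list, with the checkpoint scaffold gene Topbp1 (0.98, FDR = 0.00735, edgeR), the helicase gene Blm (0.83, FDR = 0.0021) and Tdp1, whose product removes topoisomerase I from DNA (0.74, FDR = 0.00301). The topoisomerase gene Top3a was higher with a fold under the threshold (0.51, FDR = 0.00915, edgeR), while Top3b (0.13, FDR = 0.303) and Top1 (-0.03, FDR = 0.878) did not pass. Like Top2b, Top3b and Top1 were near the median of all genes.

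**Figure D5:**
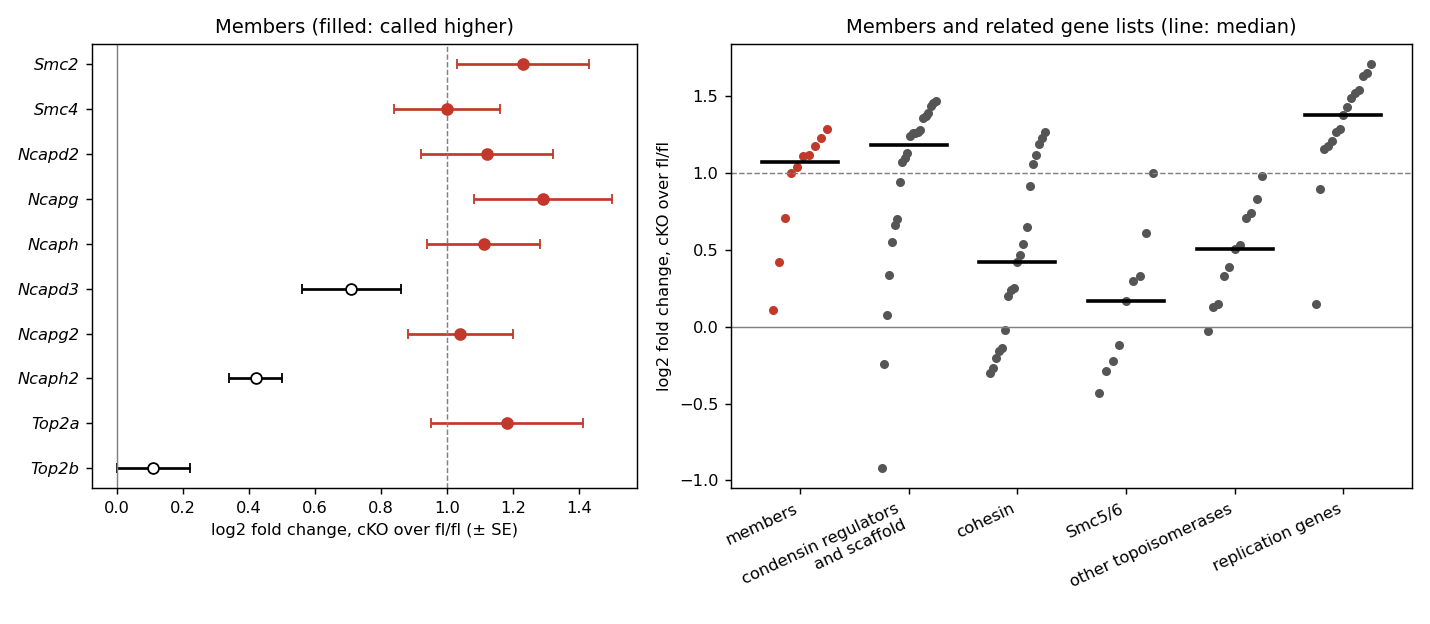
Log2 fold changes of NF-YA cKO over NF-YA fl/fl for the members with their SE (left, filled points called higher, dashed line at 1) and for the genes of the related lists (right, points are genes, lines are medians). The medians are 1.07 for the members, 1.19 for the condensin regulators, 0.42 for cohesin, 0.17 for Smc5/6, 0.51 for other topoisomerases and 1.38 for the replication genes.

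Finally, genes with the pattern most like that of each topoisomerase were sought among the 9454 genes that averaged 10 CPM or more, by the root mean square distance between centred log2 CPM over the 6 libraries. This measure holds the difference between genotypes and the order of the libraries together. Nearest to Top2a were Dnmt1 (0.049), Esco2 (0.054), Tacc3 (0.056), Kif2c (0.057) and Kif23 (0.06), which code for the maintenance DNA methyltransferase, the cohesin acetyltransferase, a spindle protein and a pair of mitotic kinesins. Among the members, Smc2 ranked nearest to Top2a at place 29, followed by Ncapg (48), Ncapg2 (70), Smc4 (79), Ncaph (121), Ncapd2 (242) and Ncapd3 (492). Ncaph2 and Top2b were far from Top2a, at places 2269 and 3672. Among the 5 nearest to Top2b were Slk (0.044), Etnk1 (0.044), Mink1 (0.05) and Stk24 (0.051), with log2 fold changes of 0.03 to 0.14 that did not pass the test. Of the members, Ncaph2 was the nearest to Top2b, at place 2074.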

How the data were processed

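RNA-seq libraries of SCs were analyzed, 3 of NF-YA cKO and 3 of NF-YA fl/fl, grouped by their labels. The authors used Bowtie2 for alignment to mouse transcripts (mm10) and RSEM for quantification (per the labels and methods), which divides a read between the transcripts it fits. The deposited values are expected counts without normalization, and were whole within 0.005 in all 6 libraries for 7 members but not for Ncapd3, Ncapg and Ncaph2. The deposited TPM are scaled to transcript length and a fixed sum, and keep no depth. The deposited percent of the gene's TPM was used for transcripts. Whether strand was used in the authors' counting is not given in the sources used here, so that members and overlapping antisense genes may share reads.

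Expected counts were rounded. The 17348 genes that exceeded 10 counts in 2 or more libraries were tested with edgeR 4.0.16 in R 4.3.3, by TMM and a quasi-likelihood model of genotype alone, adjusted by Benjamini-Hochberg. The SE is the log2 fold change divided by the square root of F. Ratios and shares were compared with exact permutation tests over libraries. Pairs of libraries of one genotype differed by more than sampling noise (chi-square per degree of freedom of 13.72 or more). At these depths 3 counts equal 0.073 to 0.1114 CPM, and the spread between libraries limits precision more than counting error does. The fit was tested on simulated data for this comparison (16998 genes). It recovered 50% of changes of 1.5, 72.9% of 2 and 85.9% of 3 on the log2 scale, and called 4 of 16805 unchanged genes. Changes as small as those of the members were not simulated, and both genotypes were given the same spread.

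Alternatives tried were the DESeq2 1.42.0 test, DESeq2 size factors, library totals without TMM, filterByExpr, no filter, limma 3.58.1 on log2(TPM + 1) and log2(TPM + 0.1), unrounded counts, a replicate block, other thresholds, other scales for ratios, and leaving out each library; those for the condensin pairs were chosen after seeing the data. Genes named are the 10 members, Nfya, from each of 4 lists the 3 genes with the highest and the 2 with the lowest log2 fold change at a mean of 1 CPM or more, and the 5 nearest in pattern to Top2a and to Top2b, of which 1 is not reported here. The sex-linked, overlapping and structural RNA genes, the satellite cell and myoblast markers, Ptprc, C1qb, Top3a, Smc1a and Smc3 fall outside this rule and were named after their values were seen. Markers of endothelial (1 of 6 called higher), fibro-adipogenic (1 of 6 higher), pericyte (1 of 6 lower) and Schwann cells (4 of 6 higher) were also read, as were 7 satellite cell and myoblast markers (2 called lower, and 2 higher and 3 lower at an FDR under 0.05). The members and lists were chosen with earlier results of these data known. Missing list symbols were matched through RefSeq synonyms, coordinates came from the GENCODE annotation of GRCm38 and promoters from RefSeq. Protein sequences were not used here. Plots were drawn with matplotlib 3.10.9.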

Additional observations from a re-analysis of the deposited data

How the results depend on the processing

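Under all 15 alternative fits the 10 members stayed higher in NF-YA cKO in sign, with log2 fold changes of 1.01 to 1.48 for Top2a, 0.89 to 1.19 for Smc4, 0.36 to 0.47 for Ncaph2 and 0.03 to 0.19 for Top2b, which reached an FDR under 0.05 in 0 of them. Calls moved more. All genes called higher and lower numbered 231 and 704 with limma on log2(TPM + 1), and 361 were higher and 1067 lower on log2(TPM + 0.1), a split further toward lower calls than 806 and 1331. With an FDR under 0.05 at any fold they numbered 3418 and 3285. Members called were 0 under both limma fits, where 7 passed an FDR under 0.05 (not Ncapd3, Ncaph2 and Top2b), and 0 under glmTreat against a log2 fold change of 1. The share of all genes at an FDR under 0.05 in the limma fits is not given here. Under limma the lists called 0 cohesin genes, 0 Smc5/6 genes and 2 condensin regulators at both pseudocounts, and 5 and 6 replication genes. The single Smc5/6 call was lost (0) with DESeq2, its size factors and filterByExpr, and other topoisomerases gained 1 without TMM, without a filter and with the block. Leaving out each library gave 177 to 890 genes higher, 523 to 1684 lower, 0 to 7 members, 0 to 6 cohesin genes, 0 to 1 Smc5/6 genes, 0 to 1 other topoisomerases, 2 to 15 condensin regulators and 4 to 13 replication genes, and a Top2a to Top2b difference of 0.96 to 1.28. These fits have fewer libraries, and other causes of the lower counts were not tested. Libraries with the same replicate number did not deviate together (r = 0.17, -0.07 and 0.05), so that the numbers give no pairing; with the replicate block 7 members were called, with 625 genes higher and 947 lower, and NF-YA cKO replicate 2 correlated best with another number (0.1). Of the ratios and transcript shares, 0 that were apart between genotypes changed sign, and 10 that overlapped did so in some setting, among them Ncapg relative to the replication genes.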
